A study of Mus musculus with 4 samples.

Results

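The heat shock proteins and their DnaJ cochaperones were measured by RNA sequencing in 4 samples of mouse spleen enlarged by lymphoma. The gene family was taken by name from the deposited count table: all HSP90, HSP70, HSP110, small HSP, HSP60 and HSP10 genes, the exchange factor gene Hspbp1, and the numbered genes of the DNAJA, DNAJB and DNAJC classes, leaving out Hspbap1. This gave 71 of 24943 genes. The rule uses names alone, but earlier results of these data were known when the family and the gene lists were chosen. The series concerns a TP63 fusion in mouse lymphoma, and all 4 samples carry 1 set of labels: a transgenic mouse whose transgene and promoter are not named, and spleen cells bearing tumour, with no age, strain or control tissue given. Red cells were lysed and no sorting is described, so a library can hold tumour cells and other spleen cells, and fewer cells of a type and less RNA per cell cannot be told apart. In the order of their accessions, the samples titled GW19, GW95, GW255 and GW328 are called lymphomas 1 to 4. Nothing labelled distinguishes the samples, so they form 1 group of 4, comparisons are between single libraries, and no test or p-value exists. Whether each sample came from its own animal is not stated, so their spread may be technical in part.

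Heat shock proteins are chaperones, which bind unfolded proteins and help them to fold, to be transported or to be degraded. HSP70 proteins bind short stretches of unfolded chain and cycle between ATP and ADP. DnaJ proteins (DNAJA, DNAJB and DNAJC) deliver clients to HSP70 and speed up its ATP hydrolysis, and exchange factors such as the HSP110 proteins and Hspbp1 then release the ADP. HSP90 takes over clients that are partly folded, among them kinases and transcription factors, and HSP60 with its lid HSP10 folds proteins inside a closed cage in mitochondria. Some family members are made at all times, whereas others are switched on by the transcription factor HSF1 after heat or other damage to proteins.

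Total counts were between 7773546 and 9602413 per library, and levels are given as CPM, the usual library-scaled count, with the TMM factors of edgeR. The common biological coefficient of variation over the 4 libraries was 0.839, and 0.964 without lymphoma 2. The libraries differed in the cells they held. Summed over 8 B cell markers they had 69.1, 1358, 4546 and 6315 CPM, and over 9 T cell markers 6428, 4889.7, 383 and 982 CPM, in lymphomas 1 to 4. Whether lymphoma 2 is independent of lymphoma 1 cannot be told. Over 35 genes with at least 50 CPM in lymphoma 1 and levels at least 20-fold lower in lymphomas 3 and 4, the ratio of lymphoma 2 to lymphoma 1 had a median of 0.668 and a narrow interquartile range of 0.648 to 0.706. The same ratio over the 62 chaperone genes with a value had a median of 1.01 and an interquartile range of 0.813 to 1.33.

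As a family, chaperone genes were expressed in each tumour and had a smaller median difference between tumours than all genes together. They took 1.17%, 1.29%, 1.06% and 1.20% of all counts in lymphomas 1 to 4. Of the 71 genes, 63 reached 1 CPM in at least 1 library, against 13543 of all 24943 genes. The other 8 (Dnajb3, Dnajb7, Dnajb8, Dnajc22, Hspb2, Hspb3, Hspb7 and Hspb8) had at most 3 counts in any library, and 3 of them (Hspb3, Hspb7 and Hspb8) had 0 counts throughout. Read as allowing up to 3 counts, a 0 allows up to 0.379, 0.335, 0.294 and 0.330 CPM in lymphomas 1 to 4. Between the highest and the lowest library, the 63 genes had a median difference of 1.19 on the log2(CPM + 1) scale, against 1.57 over all 13543 genes that reached 1 CPM. Within 2-fold over all libraries were 20 of 63 (24.4% of all genes). A difference of 8-fold or more was reached by 5 of 63, against 16.3% of all genes. These 5 were Hspa1a, Hspa1b, Hspb1, Dnaja4 and Hspa12a, and without lymphoma 4 they were 3 (Hspa12a, Hspa1a and Hspa1b, against 8.77% of all genes). Of the 5, Hspa12a overlaps Eno4, Dnaja4 overlaps Wdr61 and Hspa1a overlaps Gm20481 on the opposite strand, and without a known strand setting reads in these overlaps cannot be assigned. Just below 8-fold were Hspbp1 at 6.30-fold, Hspa2 at 5.86-fold and Hsph1 at 5.67-fold, all in CPM + 1. The highest library was lymphoma 1 for 19 members, lymphoma 2 for 7, lymphoma 3 for 16 and lymphoma 4 for 21 (29.4%, 6.32%, 30.4% and 34.0% of all genes). With total counts as the scale these became 10, 8, 19 and 26. The lowest library was lymphoma 1 for 21 members, lymphoma 2 for 2, lymphoma 3 for 19 and lymphoma 4 for 21 (39.5%, 5.25%, 22.1% and 33.2% of all genes), and 28, 2, 15 and 18 with total counts. With exonic length, the log2 ratios of the 6 pairs of libraries had a Spearman rho of -0.17 to 0.27 across the 63 chaperone genes and 0.0026 to 0.27 across 13409 genes, which are not independent replicates.

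**Figure D1:**
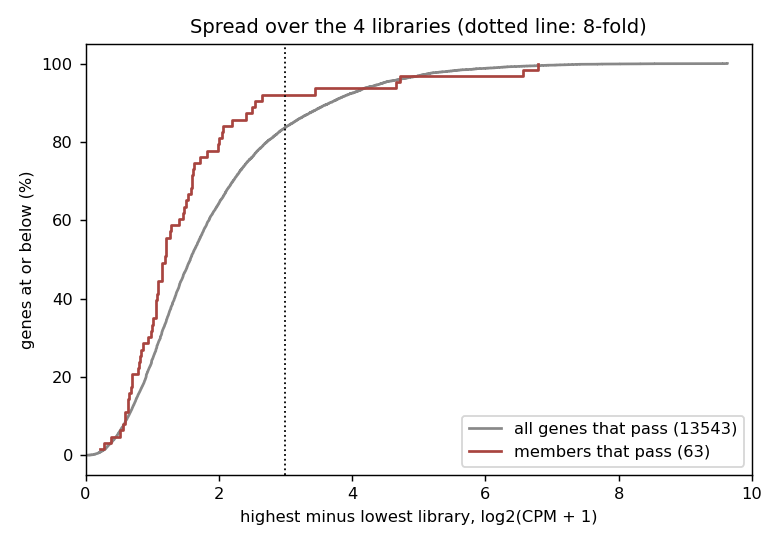
Cumulative share of genes (vertical axis, in percent) against the difference between the highest and lowest library in log2(CPM + 1) (horizontal axis), for the 63 chaperone genes (red) and for all 13543 genes that reached 1 CPM in a library (grey). The red line lies to the left of the grey one over much of its course (medians 1.19 and 1.57), and 5 chaperone genes lie beyond the dotted line at 8-fold.

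The stress-inducible HSP70 genes varied most. Hspa1a (chromosome 17, 34969190 to 34972156, minus strand, GRCm38) and Hspa1b (chromosome 17, 34956436 to 34959238, minus strand) encode the HSP70 that cells make after heat shock. Hspa1a had 20, 1787, 13 and 2286 counts in lymphomas 1 to 4, or 2.53, 199, 1.28 and 251 CPM. Hspa1b had 44, 3432, 77 and 5656 counts, or 5.56, 383, 7.56 and 622 CPM. Both were abundant in lymphomas 2 and 4 and low in lymphomas 1 and 3, with no overlap of the exact Poisson 95% intervals between these pairs. The intervals of Hspa1b were 4.04 to 7.46, 370.1 to 396, 5.96 to 9.44 and 606 to 638 CPM, and cover counting error only. From lowest to highest library the ratio of CPM + 1 was 111-fold for Hspa1a and 94.98-fold for Hspa1b. The transcripts of the pair are 91.8% identical over 2742 aligned bases, and 62.3% of the 50-base windows of the Hspa1b transcript occur unchanged in that of Hspa1a, so the division of reads between them is uncertain. Their sum does not depend on that division except for reads dropped as ambiguous, and was 8.08, 582, 8.83 and 873 CPM.

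Other heat-inducible chaperones had the same 2 libraries on top. Hspb1 (chromosome 5, 135887919 to 135889563, plus strand), the small heat shock protein HSP27, had 0, 44, 2 and 220 counts, or 0, 4.91, 0.196 and 24.2 CPM. Against the 3 counts that a count of 0 allows in lymphoma 1, Hspb1 was at least 63.8-fold higher in lymphoma 4 and at least 12.9-fold higher in lymphoma 2. Dnaja4, an inducible cytosolic DnaJ protein, had 4, 72, 8 and 140 counts, or 0.505, 8.03, 0.785 and 15.4 CPM. At 0.0775, 1.28, 0.105 and 3.03 FPKM it had the same order of libraries, but did not reach 8-fold once 1 FPKM was added. Hsph1 (HSP105), an exchange factor for HSP70, was better expressed, at 54.2, 152, 25.9 and 123 CPM. Dnajb1 (HSP40), the main partner of inducible HSP70, was highest in the same libraries at 144, 204, 68.7 and 244 CPM, but lymphoma 1 lay less than 2-fold below lymphoma 2.

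The pattern was counted with a fixed rule: a pair of libraries lying 2-fold or more above both others in CPM + 1, with at least 10 CPM in both. Without the size of the gap, lymphomas 2 and 4 were both above the others for 16 of 63 chaperone genes, against 19.4% of all genes. With it, they met the rule for 4 of 63 chaperone genes, against 2.0% of all genes. The 4 were Hspa1a, Hspa1b, Hsph1 and the endoplasmic reticulum gene Dnajb9. In FPKM Hsph1, at 7.98, 22.4, 5.33 and 16.9 FPKM, no longer met it once 1 FPKM was added. Under a 4-fold rule Hspa1a and Hspa1b alone did. Dnaja4 and Hspb1 had the gap but fell short of 10 CPM in lymphoma 2. With lymphoma 2 left out, lymphoma 4 lay 2-fold above lymphomas 1 and 3 for 9 of 63 chaperone genes (10.9% of all genes). With lymphoma 4 left out, lymphoma 2 did so for the same 4 of 63 (2.25% of all genes). Lymphomas 3 and 4 were the high pair for 1 chaperone gene, Hspa12a (2.11% of all genes), which makes 5 of 63 for any pair (7.63% of all genes). Lymphomas 1 and 2 were the high pair for 0 of 63 (3.46% of all genes), as were lymphomas 1 and 3 (0.00738%) and lymphomas 2 and 3 (0.0517%).

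Not all genes known to respond to heat shock had this pattern. The list of heat-inducible members held 14 genes, 13 of which reached 1 CPM, with medians of 4.98, 7.66, 4.76 and 7.32 log2(CPM + 1) in lymphomas 1 to 4. Of the 13, the highest library was lymphoma 4 for 5 genes, lymphoma 2 for 4, lymphoma 1 for 4 and lymphoma 3 for 0, against 34.0%, 6.32%, 29.4% and 30.4% of all genes. The counts for lymphomas 4 and 1 are near those shares. With total counts as the scale the first 3 numbers were 5, 6 and 2. Hspa8 (HSC70), the HSP70 of unstressed cells, was at 3430.4, 3019, 1425 and 1682 CPM, and Hsp90aa1, the inducible cytosolic HSP90, at 798, 791, 450.3 and 599 CPM. Both were lowest in lymphoma 3 under each scaling. Dnaja1, a cytosolic DnaJ protein, was at 263, 287, 129 and 176 CPM and also lowest in lymphoma 3. Dnajb4 was at 15.7, 33.8, 26.3 and 24.8 CPM and Hspa4l, an HSP110 protein, at 16.9, 20.6, 9.91 and 15.6 CPM, with ratios of highest to lowest CPM + 1 of 2.09 and 1.98.

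**Figure D2:**
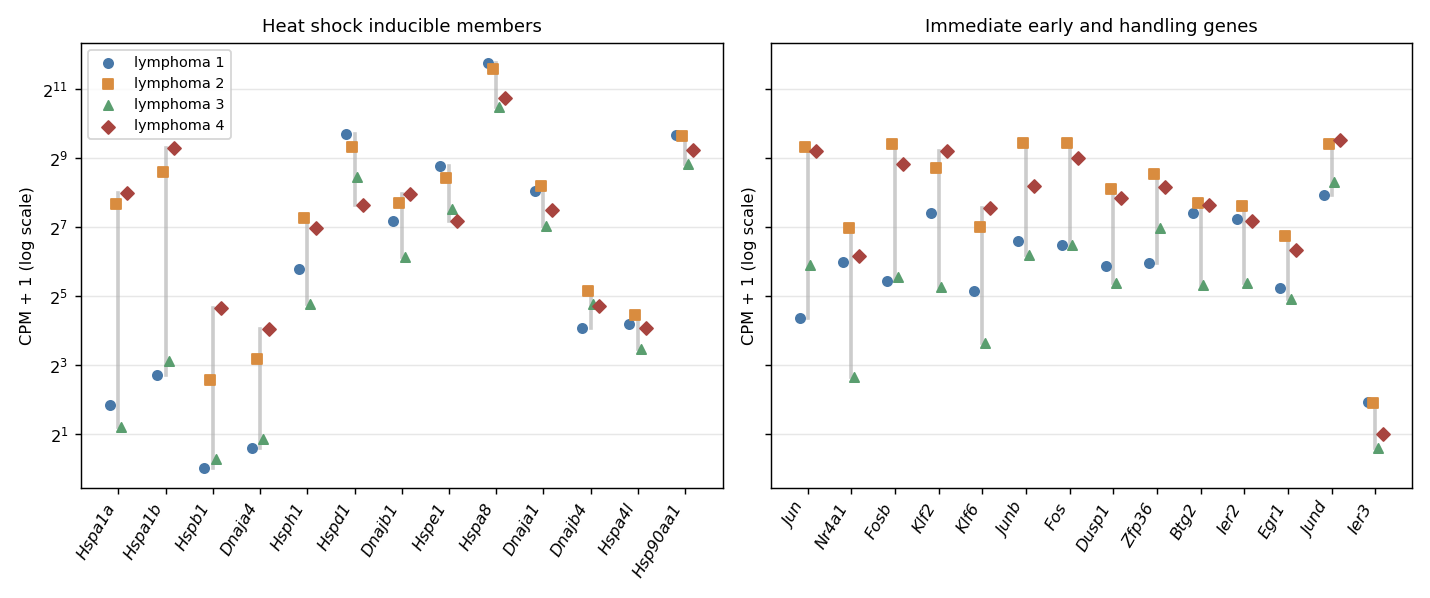
CPM + 1 on a log scale (vertical axis) of the 13 heat-inducible chaperone genes that reached 1 CPM (left) and of the 14 immediate early and handling genes (right), ordered by spread. Each point is 1 library and each grey bar runs from its lowest to its highest library. For Hspa1a, Hspa1b, Hspb1 and Dnaja4 the squares and diamonds of lymphomas 2 and 4 lie well above the circles and triangles of lymphomas 1 and 3, whereas for Hspd1 and Hspe1 lymphoma 1 is on top.

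Genes that respond to handling of tissue had the same high libraries. Of 14 immediate early and handling genes, 10 had lymphomas 2 and 4 at least 2-fold above the others (2.0% of all genes), and their medians were 5.95, 8.31, 5.37 and 7.99 log2(CPM + 1). Jun, a subunit of the AP-1 transcription factor, was at 19.6, 628, 58.1 and 588 CPM, and Jund, which had the highest mean CPM of the list, at 242, 667, 315 and 733 CPM. Summed markers of other blood cells were also higher in lymphomas 2 and 4 than in lymphomas 1 and 3, but single markers were not uniform. Summed NK cell markers (5 genes) were 2.53, 84.8, 30.6 and 134 CPM, macrophage markers (8 genes) 115, 303, 139 and 393 CPM, dendritic cell markers (6 genes) 36.5, 78.8, 18.4 and 148 CPM and neutrophil markers (6 genes) 21.98, 165, 91.6 and 621 CPM. Of these 25 markers, the rule for pairs with lymphomas 2 and 4 high was met by 2 NK, 3 macrophage, 1 dendritic cell and 1 neutrophil marker (2.0% of all genes). Among those that did not meet it, Cd68 was at 2.65, 8.03, 19.3 and 29.2 CPM and Prf1 at 0, 20.7, 19.6 and 13.4 CPM. Of the 25, 4 had 0 counts in lymphoma 1 (C1qc, Zbtb46, Xcr1 and Prf1) and each had counts in the other libraries. The part of handling and of these cells in the levels of Hspa1a and the other inducible genes was not tested.

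RNA levels of the heat shock factors did not follow Hspa1a. Activity of these factors was not measured, and their part in the pattern was not tested. Hsf1, the main activator of heat shock genes, was at 28.3, 43.2, 54.6 and 52.4 CPM and lowest in lymphoma 1. Hsf2 was at 6.06, 8.36, 3.04 and 5.28 CPM. Hsf4, known from the lens, was at 0.126, 0.446, 2.65 and 1.98 CPM, Hsf5 had at most 5 counts and Hsf3 had 0 counts. Bag3, an HSP70 cochaperone that HSF1 also induces, had another order, with 21.5, 20.2, 0.393 and 5.83 CPM: lymphomas 1 and 2 were high and lymphoma 3 had 4 counts.

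Promoter sequence is shown for the inducible genes because HSF1 binds repeats of the unit nGAAn (n, any base) in alternating orientation. RefSeq promoter windows (250 bases before to 50 after each start, GRCm38.p6) matched 58 of the 71 genes by symbol. The strict element of 3 units, nGAAn, nTTCn and nGAAn in a row on either strand, was found in 4 of these 58 (6.90%), against 0.659% of 27025 genes in the table. The 4 were Hspd1, Hspe1, Hsph1 and Dnajb6. A looser pair of units, nGAAn followed by nTTCn, which reads the same on both strands, lies within the strict element and was chosen after the strict search, was found in 13 of 58 (22.4%) and in 8.98% of all genes. Of the 12 heat-inducible members with a window, 9 held it: Dnaja1, Dnaja4, Hspa1a, Hspa1b, Hspb1, Hspb8, Hspd1, Hspe1 and Hsph1. Dnajb1 and Dnajb4 had a window and did not. The list was drawn up from known targets of HSF1, so this outcome was fixed in part by that choice. Binding of HSF1 was not tested. The reversed pair, nTTCn followed by nGAAn, was found in 6 of 58 (10.3%) and 9.53% of all genes. Printed 5′ to 3′ on the gene's strand, the capitals mark the fixed letters of 1 match. The stretches of Hspa1a (chr17:34972207-34972306, minus strand) and Hspa1b (chr17:34959289-34959388, minus strand) read the same, and 247 of the 250 bases before the 2 starts are identical. Those of Hspb1 (chr5:135887756-135887855, plus strand), Dnaja4 (chr9:54699458-54699487, plus strand) and Hsph1 (chr5:149636280-149636308, minus strand, just after the start) follow. The windows of Hspb1 and Dnaja4 each hold a second match, which for Hspb1 lies inside the printed stretch, in lower case, and for Dnaja4 outside it.
Hspa1a: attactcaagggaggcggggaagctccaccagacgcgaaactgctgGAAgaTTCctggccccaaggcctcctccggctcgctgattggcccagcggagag
Hspa1b: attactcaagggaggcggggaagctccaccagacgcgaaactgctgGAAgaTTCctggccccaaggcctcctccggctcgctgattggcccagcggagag
Hspb1: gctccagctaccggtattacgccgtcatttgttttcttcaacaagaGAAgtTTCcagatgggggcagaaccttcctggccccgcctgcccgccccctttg
Dnaja4: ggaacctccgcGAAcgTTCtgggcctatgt
Hsph1: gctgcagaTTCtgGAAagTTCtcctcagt

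Levels of different members can be compared per unit length. There, in the deposited table read as FPKM (fragments scaled by transcript length and library size), the order of mean levels was Hspa8 (1095 ± 435 FPKM, SD, n = 4), Hsp90ab1 (937 ± 202), Hspe1 (362 ± 167), Hsp90aa1 (158 ± 33.8), Hspd1 (143 ± 73.8) and Hspa5 (133 ± 20). Hspa8 and Hsp90ab1 did not differ beyond their spread, since Hsp90ab1 was the higher of the 2 in lymphoma 3. The same holds for Hsp90aa1, Hspd1 and Hspa5, whose SDs overlap. In lymphomas 1 to 4 the FPKM of Hspa8 was 837, 9.08, 257 and 3.13 times the sum of Hspa1a and Hspa1b. The inducible HSP70 genes therefore stayed below the constitutive one per unit length in each library, but came within 3.13-fold of it in lymphoma 4.

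Among the HSP90 genes, Hsp90ab1, the constitutive cytosolic form, was at 3908, 3476, 3638 and 2502 CPM and lowest in lymphoma 4 under each scaling. Its inducible paralog Hsp90aa1 was lowest in lymphoma 3 instead. Hsp90b1 (GRP94), the form of the endoplasmic reticulum, was at 277, 370.04, 271 and 599.8 CPM and highest in lymphoma 4 under each scaling.

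The other HSP70 genes covered distinct compartments and tissues. Hspa9 (mortalin), of the mitochondrial matrix, was at 564, 415, 287 and 184 CPM. Hspa14, which forms a ribosome-bound complex with the product of Dnajc2, was at 151, 120.1, 134 and 70.3 CPM and, like Hspa9, lowest in lymphoma 4. Hspa13, a microsomal HSP70, was at 28.4, 24.3, 11.2 and 36.1 CPM and lowest in lymphoma 3. The germ cell genes Hspa2 and Hspa1l were both highest in lymphoma 3: Hspa2 was at 3.41, 6.47, 24.8 and 7.48 CPM and Hspa1l at 0.758, 1.23, 7.07 and 2.09 CPM.

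Hspa12a, a distant HSP70 relative (chromosome 19, 58795750 to 58943654, minus strand), had 3, 31, 248 and 321 counts, or 0.379, 3.46, 24.3 and 35.3 CPM. It was low in lymphomas 1 and 2 and high in lymphomas 3 and 4, a 26.3-fold ratio of highest to lowest CPM + 1. In the FPKM table Hspa12a had the same order of libraries, at 0.0155, 0.217, 1.47 and 2.68 FPKM in lymphomas 1 to 4. Once 1 FPKM was added, its log2 range was 1.86 in place of 4.72, short of the 8-fold rule. Hspa12a also missed the rule for pairs there, since lymphomas 3 and 4 lay below the level that this rule asks of high libraries. Its order of libraries was that of the summed B cell markers given above, a description of 4 points that was not tested. Per unit length it was low, at 1.10 ± 1.24 FPKM. Hspa12b, the paralog known from endothelium, had at most 19 counts in a library (0.126, 1.12, 1.57 and 2.09 CPM).

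In the group of exchange factors, Hspa4 (an HSP110 protein that most cells make) was at 326, 274, 415 and 195 CPM, highest in lymphoma 3 and lowest in lymphoma 4. Hspbp1 had the largest fold among the genes that stayed below the 8-fold line, at 129, 90.1, 65.2 and 19.6 CPM, with lymphoma 1 highest and lymphoma 4 lowest. Hspbp1 and Hsph1 both act as exchange factors of HSP70 but differed in order: lymphoma 4 was lowest for Hspbp1, whereas for Hsph1 it was exceeded by lymphoma 2 alone.

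Small heat shock protein genes stayed at or below 24.2 CPM in each library. Of 8 genes of this name, 4 reached 1 CPM, near the share of all genes (13543 of 24943). Hspb11, which is a subunit of the intraflagellar transport machinery rather than a chaperone, had the highest mean per unit length (19.9 ± 5.89 FPKM, SD, n = 4) and was at 20.2, 11.04, 13.5 and 7.04 CPM. Hspb6 (HSP20), a muscle chaperone, was at 3.66, 3.57, 7.75 and 4.62 CPM, and Hspb9, known from testis, had at most 16 counts in a library. Apart from Hspb1, none of the 4 reached an 8-fold difference.

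The mitochondrial chaperones Hspd1, Hspe1 and Hspa9 were highest in lymphoma 1 and lowest in lymphoma 4 under each scaling. Hspd1 (HSP60; chromosome 1, 55077835 to 55088243, minus strand) was at 827, 632, 347 and 198 CPM. Its lid Hspe1 (HSP10; chromosome 1, 55088132 to 55091307, plus strand) was at 430.1, 339, 183 and 143 CPM. From high to low, the libraries stood in the order 1, 2, 3 and 4 for both, and the ratio of Hspd1 to Hspe1 in FPKM was 0.405, 0.405, 0.415 and 0.305, a near-constant value in the first 3 libraries. The order held for 8 of the 63 chaperone genes, against 14.2% of all genes, and was counted after the values were seen. The 8 included Hspa9, Hspbp1 and the mitochondrial import gene Dnajc19, at 101, 77.6, 73.4 and 30.1 CPM, which had another order with total counts as the scale. Of the 10 members that act in mitochondria, 7 were lowest in lymphoma 4 under each scaling, against 33.2% of all genes under TMM. The exceptions were Dnaja3 (TID1), at 41.8, 41.4, 40.7 and 53.5 CPM, Dnajc28, at 1.52, 1.67, 0.883 and 3.30 CPM, and Dnajc4, at 7.96, 10.04, 14.1 and 14.6 CPM. Summed proliferation markers (8 genes) moved with this group in part, at 2296, 1728, 3018 and 384 CPM, and were also lowest in lymphoma 4 but highest in lymphoma 3. Single markers were not uniform. Of the 8, 4 were highest in lymphoma 1 and 4 in lymphoma 3 (29.4% and 30.4% of all genes), and 7 were lowest in lymphoma 4 (33.2%). Mki67 was lowest in lymphoma 1, at 29.6, 58.4, 668 and 66.4 CPM. The part of proliferation in the result was not tested.

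Hspd1 and Hspe1 lie head to head on opposite strands and their annotated ends overlap, so that without a strand setting, which is not given in the sources used here, reads in the overlap cannot be told apart. Before the start of Hspe1, within the annotated span of Hspd1, lies the strict heat shock element noted above, in which overlapping matches on both strands join into 4 units in a row. It is shown because the genes share it and have the same order of libraries. The stretch (chr1:55088053-55088082) is printed on the strand of each gene, with the unit letters in capitals.
Hspd1: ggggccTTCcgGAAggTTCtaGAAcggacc
Hspe1: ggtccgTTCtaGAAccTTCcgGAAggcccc

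Cytosolic chaperonin genes had the same highest and lowest library as the mitochondrial one. The CCT complex folds actin and tubulin, and prefoldin hands clients to it. Of 14 CCT and prefoldin genes, 13 were highest in lymphoma 1 (14 with DESeq2 size factors) and 13 were lowest in lymphoma 4 under each scaling. Under TMM these libraries were highest and lowest for 29.4% and 33.2% of all genes. Medians were 9.56, 9.12, 8.13 and 7.54 log2(CPM + 1). Cct2 had the highest mean, at 1438, 1084, 631 and 329 CPM, and Pfdn1 had the largest spread at 101, 75.9, 71.6 and 17.6 CPM. The exception was Pfdn5, at 295, 221, 206 and 296 CPM. Among 14 cochaperones of HSP90, 9 were lowest in lymphoma 4 under each scaling, against 33.2% of all genes under TMM. Cdc37, which brings kinases to HSP90, was at 399, 313, 222 and 153 CPM and Ppid, a prolyl isomerase, at 305, 231, 118 and 30.5 CPM. Among 17 exchange factors and cochaperones of HSP70, 9 were lowest in lymphoma 4 (7 with total counts as the scale), and Bag6 had the highest mean, at 223, 216, 252 and 198 CPM. Of 8 genes of mitochondrial proteases and mitochondrial HSP90, 7 were lowest in lymphoma 4, but 4 with total counts as the scale. On that list Yme1l1, an inner membrane protease, was at 156, 153, 91.9 and 159 CPM and Htra2 at 51.03, 45.3, 74.7 and 22.8 CPM.

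**Figure D3:**
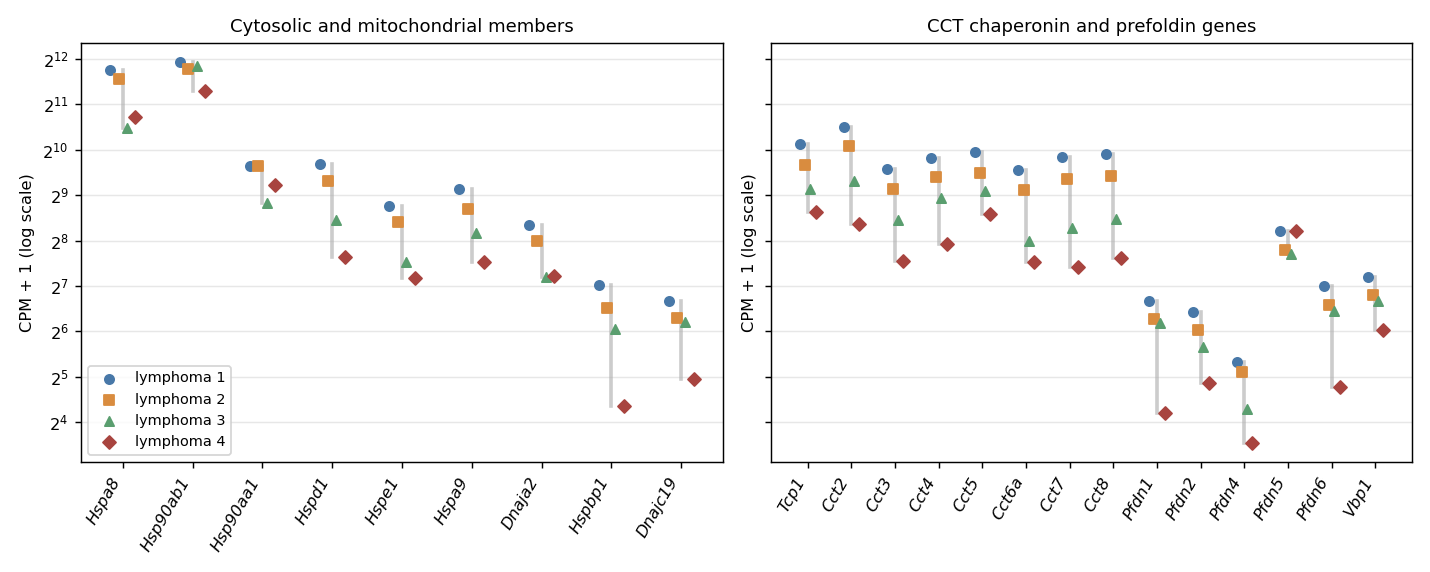
CPM + 1 on a log scale (vertical axis) of 9 cytosolic and mitochondrial chaperone genes (left) and of the 14 CCT chaperonin and prefoldin genes (right). Each point is 1 library and each grey bar runs from the lowest to the highest. The diamonds of lymphoma 4 are lowest for Hspd1, Hspe1, Hspa9, Hspbp1 and 13 of the 14 CCT and prefoldin genes, and the circles of lymphoma 1 are highest for 13 of the 14.

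Chaperones of the endoplasmic reticulum were most often highest in lymphoma 4. Of 14 members on the list for this compartment, 13 reached 1 CPM, 7 were highest in lymphoma 4 (34.0% of all genes), and 0 reached 8-fold (16.3% of all genes). With total counts as the scale 9 were highest in lymphoma 4, and the share of all genes was not computed for that scale. Dnajc14, which also belongs to this compartment, was not on the list and was highest in lymphoma 4 under each scaling. Medians were 4.66, 4.89, 4.69 and 5.41 log2(CPM + 1). Hspa5 (BiP), the HSP70 of this compartment, was at 557 ± 93.8 CPM (SD, n = 4), with values of 519, 635, 442 and 633 CPM, and which of lymphomas 2 and 4 was highest depended on the scaling. Dnajb9 (ERdj4), a BiP partner that restrains the stress sensor IRE1, had the widest spread of the list at 10.99, 52.9, 18.2 and 62.9 CPM, with lymphomas 2 and 4 high. Dnajb11 (ERdj3), another BiP partner, was at 71.1, 71.8, 149 and 86.6 CPM and highest in lymphoma 3. Dnajc3 (P58IPK), a lumenal cochaperone, was at 194, 170.2, 83.6 and 127 CPM and lowest in lymphoma 3. Dnajc10 (ERdj5), a disulfide reductase, was at 89.4, 75.2, 56.7 and 104 CPM, within 2-fold.

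Genes of the unfolded protein response were not uniform. Of 15 genes, all of which reached 1 CPM, 7 were highest in lymphoma 1 and 6 in lymphoma 4 (29.4% and 34.0% of all genes). With total counts as the scale these numbers were 4 and 6. Medians were 6.90, 7.40, 6.68 and 7.32 log2(CPM + 1). The calcium-binding chaperone gene Calr had the highest mean, at 933, 745, 425 and 624 CPM. Pdia4, a disulfide isomerase, was the 1 gene of the 15 with an 8-fold spread, at 118, 179, 63.1 and 573 CPM, and Xbp1, a transcription factor of this response, was at 90.8, 120, 97.2 and 132 CPM.

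The endoplasmic reticulum stress element was searched in the same windows, because transcription factors of the unfolded protein response bind it. Its letters, CCAAT and CCACG with 9 bases of any kind between them, on either strand, were found in 3 of 58 members with a window (5.17%) and in 0.137% of all 27025 genes. All 3 are on the endoplasmic reticulum list, of which 11 genes had a window: Hspa5 (chr2:34772020-34772048, plus strand), Hsp90b1 (chr10:86705598-86705694, minus strand) and Dnajc3 (chr14:118937787-118937885, plus strand). Hsp90b1 holds a second match. Capitals mark the fixed letters.
Hspa5: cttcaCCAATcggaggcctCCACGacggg
Hsp90b1: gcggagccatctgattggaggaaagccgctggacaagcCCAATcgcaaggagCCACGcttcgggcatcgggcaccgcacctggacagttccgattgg
Dnajc3: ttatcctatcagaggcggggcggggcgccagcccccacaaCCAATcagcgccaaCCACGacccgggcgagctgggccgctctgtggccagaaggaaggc
All 3 genes were lowest in lymphoma 3, although with total counts as the scale Hspa5 and Hsp90b1 were lowest in lymphoma 1.

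The DNAJA and DNAJB classes hold the general partners of HSP70. In the first, Dnaja2 was at 324, 252, 145 and 149 CPM, like Dnaja1 lowest in lymphoma 3. Per unit length Dnaja2 (42.5 ± 13.3 FPKM, SD, n = 4) and Dnaja1 (41.1 ± 14.3 FPKM) did not differ beyond their spread. In the second class, Dnajb6, a suppressor of protein aggregation, had the highest mean per unit length (38.3 ± 7.08 FPKM), within its spread of Dnajb11 (31.8 ± 13.4 FPKM). In counts Dnajb6 was at 115, 96.8, 102 and 77.8 CPM. Dnajb6 lay within 2-fold, and its promoter window holds the strict heat shock element. Dnajb12 (21.9 ± 4.32 CPM, SD, n = 4), an anchor of the endoplasmic reticulum membrane, and Dnajb2 (15.8 ± 4.55 CPM), which sorts clients for degradation, were also within 2-fold. Dnajb14 was at 9.09, 6.58, 2.26 and 5.17 CPM, and Dnajb5 at or below 8.47 CPM. The axonemal gene Dnajb13 overlaps Ucp2 on the opposite strand, and its values of 2.78, 4.13, 10.4 and 5.61 CPM are uncertain, since the FPKM of Dnajb13 in lymphoma 3 was 0.0470.

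The DNAJC class, whose members recruit HSP70 to particular places, was the largest. Of 26 genes, 25 reached 1 CPM, 11 of the 25 lay within 2-fold (24.4% of all genes), and 0 reached 8-fold (16.3% of all genes). With a pseudocount of 0.25 CPM Dnajc6 and Dnajc12 reached 8-fold (26.4% of all genes). Dnajc5, the cysteine string protein of vesicles, had the smallest spread of all 63 genes at 125 ± 7.88 CPM (SD, n = 4), followed by Dnajc8 of the spliceosome at 123 ± 10.8 CPM. Dnajc7, a cochaperone that binds both HSP70 and HSP90, had the highest mean per unit length (62.1 ± 16.4 FPKM, SD, n = 4) and was at 177, 192, 264 and 268 CPM. Dnajc14, of the endoplasmic reticulum membrane, was at 87.7 ± 15.02 CPM.

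A few DNAJC genes had wider differences. Dnajc13, which acts in endosomal sorting, was at 26.4, 46.3, 42.7 and 112 CPM, highest in lymphoma 4 and lowest in lymphoma 1, and Dnajc16 had the same extremes at 10.99, 14.6, 14.5 and 33.1 CPM. Dnajc9, a histone chaperone, was at 129, 104, 193 and 68.5 CPM and Dnajc2, the ribosome-bound partner of Hspa14, at 78.1, 62.5, 113 and 53.7 CPM. Both were highest in lymphoma 3, as was Dnajc21, which acts in ribosome assembly, at 16.9, 20.5, 40.2 and 28.3 CPM. Summed proliferation markers were highest in that library too, as were 4 of the 8 single markers (values given with the mitochondrial genes). The part of proliferation here was not tested. Dnajc12 had 30, 35, 10 and 2 counts, low in lymphomas 3 and 4. Dnajc6 (auxilin), which uncoats clathrin vesicles, had 15, 10, 1 and 0 counts, so it was at least 5.74-fold higher in lymphoma 1 than the 3 counts allowed by the 0 in lymphoma 4. The other DNAJC genes that passed (Dnajc1, Dnajc4, Dnajc11, Dnajc15, Dnajc17, Dnajc18, Dnajc24, Dnajc25, Dnajc27, Dnajc28 and Dnajc30) ranged in mean from 1.84 CPM for Dnajc28 to 62.3 CPM for Dnajc11.

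**Figure D4:**
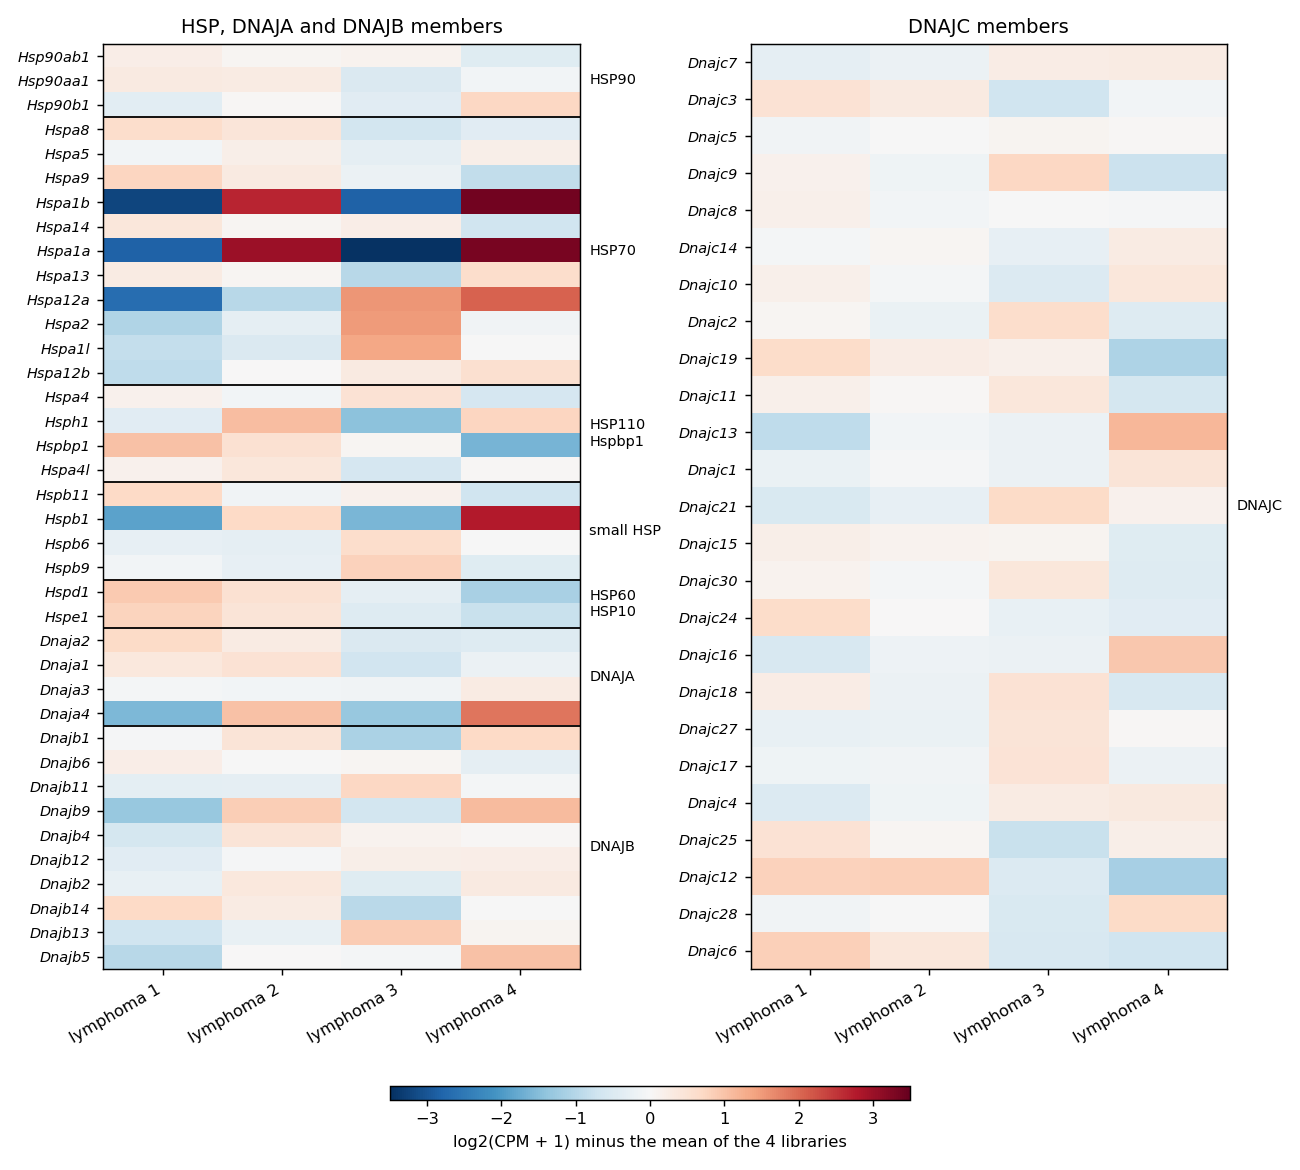
Log2(CPM + 1) of each of the 63 chaperone genes minus its mean over the 4 libraries (colour, from blue for low to red for high), with libraries in columns and genes down the side by class and mean CPM. The darkest cells are those of Hspa1a and Hspa1b, followed by Hspb1 and Hspa12a, and the panel of the 25 DNAJC genes is pale.

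Compared pair by pair, the libraries were nearest to each other for lymphomas 1 and 2. The median absolute difference of the 63 genes between these was 0.33 in log2(CPM + 1), against 0.37 for all genes, and 8 chaperone genes were 2-fold or more higher in lymphoma 2 while 0 were 2-fold lower (15.3% and 0.229% of all genes). Lymphomas 1 and 4 differed by 0.77 (1.14 for all genes), with 12 chaperone genes 2-fold higher and 12 lower in lymphoma 4 (31.2% and 24.6% of all genes). Lymphomas 3 and 2 differed by 0.70, which is above the 0.63 of all genes, with 6 genes 2-fold higher and 13 lower in lymphoma 3 (14.8% and 16.8% of all genes). The other pairs differed by 0.68 (lymphomas 3 and 1), 0.47 (4 and 2) and 0.77 (4 and 3), against 0.81, 0.77 and 0.91 for all genes. Under the rule for a library standing apart, 8-fold from the nearest of the other 3 with at least 10 CPM on the high side, 0 of 63 chaperone genes were counted, against 3.54% of all genes.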

How the data were processed

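Poly(A) RNA from spleen cells was sequenced in 4 samples. The authors deposited raw counts per gene as whole numbers, aligned with STAR 2.4.2a to mm10 per the submitters' processing notes. The deposited second table names no unit and was read as FPKM, from Cufflinks 2.2.1 per the submitters' processing notes; its 5 columns that match no sample were not used. No source used here gives the annotation or the strand setting. Over the chaperone genes FPKM followed counts per kilobase (Spearman rho 0.945 to 0.964). Left out were 26 count rows whose names had become dates (0.191% to 0.201% of counts).

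Counts were scaled with TMM (edgeR 4.0.16, R 4.3.3) on the 13543 genes reaching 1 CPM in any library before scaling. Differences use log2(CPM + 1), which understates low genes. Where FPKM replaced CPM, 1 FPKM was added and the limits of 1 and 10 CPM were applied to FPKM. Shares of all genes are under TMM where no other setting is named. Rules of size were run on simulated counts with less spread between libraries than these data. That run cannot show how often the rules count genes here. Positions and lengths are from GENCODE M21 (GRCm38), promoters from RefSeq. Named by rule were the genes of highest mean and largest SD of each class, members with an 8-fold spread, the heat-inducible list and the main organelle chaperones; from other lists, the gene with the highest mean and that with the largest SD. Other members given with values, and Hsf2, Hsf3, Hsf5, Xbp1 and Pfdn5, were named after their values were seen. Members and lists were chosen with earlier results of these data known. Alternatives were other scalings (DESeq2 1.42.0 size factors, total counts), filters, pseudocount and fold, the use of FPKM, and dropping each library in turn. Markers of erythroid cells summed to at most 4.35 CPM.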

Additional observations from a re-analysis of the deposited data

Results flagged for a closer look

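Of 45 values screened (26 members and 19 class or list medians), 2 had a library far apart. In these 2 list medians, 1 library lay far from the other 3, and the gap to its nearest neighbour took up 0.859 and 0.838 of the whole range. For independent normal values, gaps of this kind are expected in about 1 of 20 groups of 4. The 45 values share the same libraries and overlap in genes, and some members were picked for their spread. The 2 of 45 can therefore not be set against that rate. The median of the 8 small HSP genes was 0 in lymphoma 1 and 0.15, 0.13 and 0.15 log2(CPM + 1) in lymphomas 2 to 4, all near the floor. The median of the 10 mitochondrial members was 5.14 in lymphoma 4 and 5.77, 5.69 and 5.80 in lymphomas 1 to 3.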

How the results depend on the processing

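The 5 genes with an 8-fold spread and the 5 with a 2-fold gap between pairs of libraries were the same under DESeq2 size factors, total counts, no filter and a mean of 5 CPM. In that order, 16.3%, 17.9%, 8.83% and 19.4% of all genes had an 8-fold spread. A pseudocount of 0.25 CPM added Dnajc6 and Dnajc12 to the former (26.4% of all genes). The FPKM table, with 1 FPKM added and the CPM limits applied to FPKM, gave 3 and 3 of 59 members. Missing were Dnaja4 and Hspa12a in the former and Hsph1 and Hspa12a in the latter. The added 1 FPKM narrows the differences of low genes, and the limit for high libraries left out Hspa12a in the latter. These losses therefore do not mean that the 2 tables differ. In FPKM 8.28% of all genes had an 8-fold spread. A 4-fold rule gave 13 with a 4-fold spread (35.7% of all genes) and 3 with a 4-fold gap (Hspa12a, Hspa1a and Hspa1b). Under it, 1 gene stood apart (Hspb1, above in lymphoma 4) in place of 0. For gaps between pairs and for genes standing apart, shares of all genes were computed with the main settings alone. Leaving out 1 library in turn gave 3 to 5 genes with an 8-fold spread (8.77% to 16.2% of all genes). Genes standing apart were then 2 to 5, with 5 of them without lymphoma 2, where Hspa1a, Hspa1b, Hspb1 and Dnaja4 stood apart above in lymphoma 4. This follows from the rule, which 2 high libraries cannot meet. Total counts as the scale shift log2 values by -0.25, -0.06, 0.09 and 0.23 in lymphomas 1 to 4. The range of class medians over libraries (log2) moved from 0.35 to 0.62 with total counts and 0.56 at a mean of 5 CPM for DNAJC. For small HSP genes it moved from 0.15 to 0.94 at a mean of 5 CPM, 0.53 with a pseudocount of 0.25 CPM and 0.27 in FPKM, and for DNAJB from 0.81 to 0.34 in FPKM. With 1 library left out, ranges were 2.33 to 4.21 for HSP70 (4.21 with all), 0.41 to 0.92 for HSP90 (0.82), 0.23 to 0.63 for DNAJA (0.53), 0.12 to 0.35 for DNAJC and 0.029 to 0.15 for small HSP. The median difference of the 63 genes, 1.19, was 0.80 to 1.22 with 1 library left out. The cause of these shifts was not tested. No paired analysis was possible because all samples form 1 group. A count of 0 limits small HSP genes to 0.379 CPM at most.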
